A study of Mus musculus with 18 samples.

Results

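A set of 10 genes of the kidney endothelium and of vascular endothelial growth factor (VEGF) signaling was followed through bulk RNA-seq of mouse kidney tissue: *Pecam1*, *Cdh5*, *Emcn*, *Ehd3*, *Plvap*, *Kdr*, *Flt1*, *Tek*, *Esm1*, and *Vegfa*. The genes were listed by name and found by their Ensembl identifiers, and each had 1 entry among the 78239 genes of the count tables. The tissue was a piece of the left kidney of wild-type CD-1 mice aged 6 wk. Dams were fed a low protein diet (LP, 8% protein) or a normal protein diet (NP, 18% protein) through gestation and until weaning, and all offspring then received the NP diet. Each diet was represented by 5 males, and there were 5 females of the LP diet and 3 of the NP diet. All mice were injected with ferritin as a contrast agent for imaging, and male kidneys were taken 90 min, female kidneys 24 h, after the final dose, so that sex and time after injection cannot be told apart. The sources used here do not say which mice were littermates.

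VEGF-A, the product of *Vegfa*, is secreted in the kidney mainly by podocytes and tubular epithelium and acts on receptors of the neighboring endothelium. KDR is the main signaling receptor for VEGF-A, whereas FLT1 binds VEGF-A tightly but signals weakly and, in its soluble form, holds the ligand away from KDR. TEK, the receptor of the angiopoietins, acts beside this pathway to keep vessels stable. The glomerular capillaries, which filter the blood, and the peritubular capillaries, which take back fluid from the tubules, are both fenestrated but use partly different genes: EHD3 is a membrane-trafficking protein typical of the glomerular endothelium, and PLVAP forms the diaphragms of fenestrae in the peritubular capillaries.

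Total counts on genes ranged from 14050486 to 23562411 per library, with a median of 16747971. Every member had at least 10 counts in every library, and all 10 therefore entered every comparison. Summed proximal tubule markers reached 9831 to 17107 CPM (a gene's share of a library's counts, scaled to a fixed library total) and adipocyte markers varied from 0 to 234 CPM. LP female 1, LP female 2, and NP female 3, 3 libraries in all, stood apart with summed interferon-response genes of 92.5, 115, and 75.3 CPM, against 468 to 2269 CPM in the other 15 libraries. Their glucocorticoid-response genes summed to 237, 261, and 450.4 CPM, against 486 to 1271 CPM elsewhere. Where these libraries moved a result of the members, it is given with and without them.

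*Vegfa* was the most abundant member and *Flt1* the least abundant. Per kilobase of exon, *Vegfa* reached a mean of 41.1 CPM over 18 libraries (range 31.7 to 62.8), and it exceeded *Plvap*, at 24.9 ± 7.70 CPM per kb (mean ± SD), in 17 of 18 libraries. *Plvap* in turn exceeded *Cdh5*, which encodes the junctional cadherin of endothelium, in all 18 libraries. *Cdh5* was at 8.10 ± 3.04 CPM per kb. Below it lay a group whose order was not resolved by the spread between libraries. *Esm1* (6.06 ± 3.10), which encodes the secreted proteoglycan endocan, *Emcn* (5.55 ± 2.48), which encodes a sialomucin of the endothelial surface, *Kdr* (5.51 ± 2.13), and *Pecam1* (5.10 ± 1.73 CPM per kb), which encodes an adhesion molecule of endothelial junctions, each exceeded the next in 8 to 15 of 18 libraries. *Tek* (4.24 ± 1.67 CPM per kb) exceeded *Ehd3* (3.97 ± 1.51 CPM per kb) in 12 of 18 libraries, and *Ehd3* exceeded *Flt1* (2.88 ± 0.987 CPM per kb) in 17. Lengths were those of all annotated exons merged, so that a gene with many isoforms reads low on this scale. Strands were not separated, and *Plvap* shares 21.7% of its exon bases with *Gtpbp3* on the opposite strand. *Gtpbp3* itself had 5018 counts over the 18 libraries together.

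The 9 endothelial genes varied widely among mice of the same group, and *Vegfa* varied less. As normalized counts (raw counts divided by the library's size factor), *Kdr* was at 1309.8, 1246, 511, 1007, and 613 in LP males 1 to 5 and at 439, 1063, 1143, 1216, and 556 in NP males 1 to 5. LP male 3, LP male 5, NP male 1, and NP male 5 were thus low, and the diet groups overlapped fully. *Flt1* was low in the same 4 mice, at 774, 830.3, 348, 684, and 467 in LP males and 354, 753, 752, 794, and 453 in NP males. *Vegfa* was nearly level over these mice, at 3251, 2571, 2727, 2720.3, and 2488 in LP males and 2668, 2843, 2499, 2850.1, and 2765 in NP males. The SD within groups of males, on the log2 scale, was 0.64 for *Kdr* and 0.68 for *Esm1*, above 96.3% and 97.0% of the genes tested in all 18 libraries. For *Vegfa* it was 0.12, above 10.7% of the genes, where the median gene had 0.24. Over all 18 libraries the SD of the 9 endothelial genes ran from 0.43 (*Plvap*) to 0.78 (*Esm1*), and that of *Vegfa* was 0.25. In bulk tissue, fewer endothelial cells and less RNA per cell cannot be told apart.

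**Figure D1:**
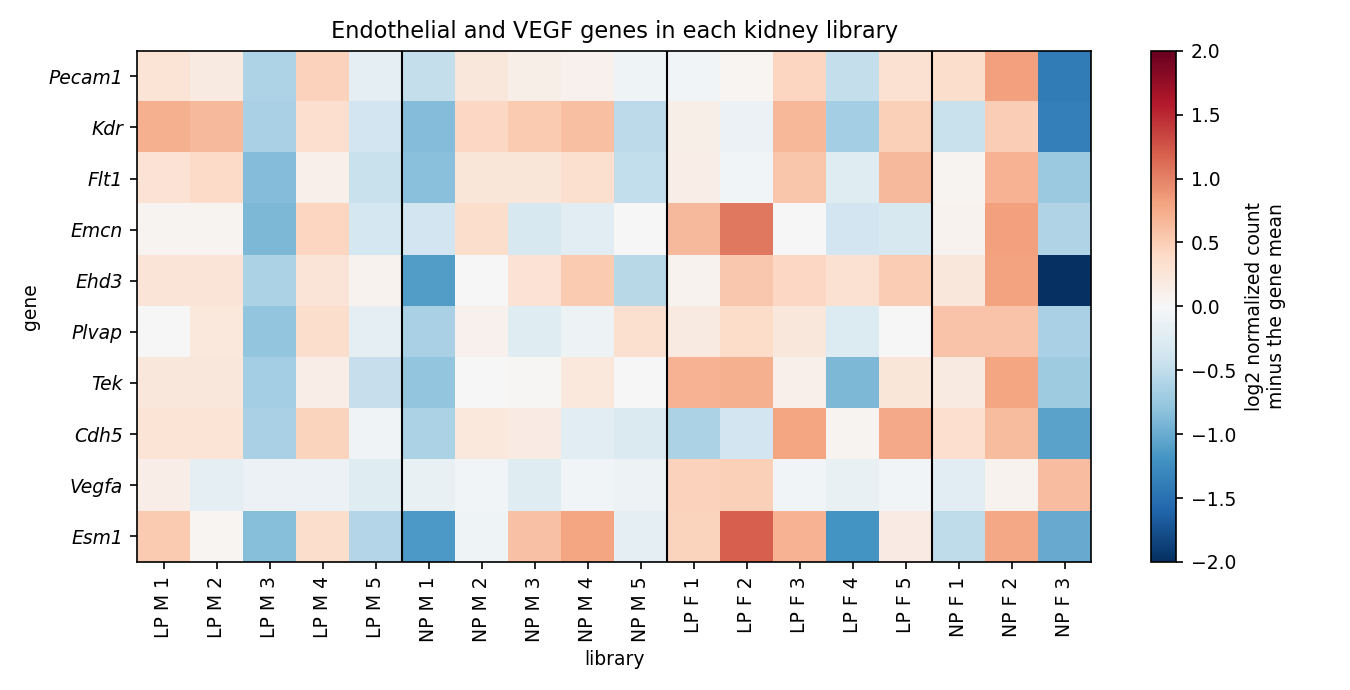
Log2 normalized count of each gene minus that gene's mean over 18 libraries, by library (columns) and gene (rows), with vertical lines between the 4 groups. LP male 3, NP male 1, and NP female 3 are low in most rows, and *Vegfa* is highest in LP female 1, LP female 2, and NP female 3.

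A few libraries were low across the whole set. NP male 1 was among the lowest 3 of 18 for 9 members, LP male 3 for 8, and NP female 3 for 8, all on the per-kilobase scale. NP female 2 was among the highest 3 for 9 members. NP female 3 had 89.7 normalized counts of *Ehd3* and 312 of *Pecam1*, against 485 and 726 and against 1054 and 1459 in the other NP females. In the same library *Vegfa* was at 4538, the highest of all 18.

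No member passed the test for maternal diet in males. Fitted LP minus NP differences ran from -0.14 (*Esm1*) to 0.23 (*Cdh5*) on the log2 scale, with a median of 0.04, and every adjusted P was 1.00 (edgeR quasi-likelihood test, Benjamini-Hochberg over 13181 genes). Of all genes tested, 5 passed, or 0.0379%. None of the 10 members passed, and none had an unadjusted P under 0.05, as 506 of all genes had. *Vegfa* was at 2751 ± 297 normalized counts in LP males and 2725 ± 146 in NP males (SD, n = 5 each), a log2 difference of 0.02 ± 0.09 (SE), with a 95% interval from 0.891-fold to 1.16-fold. The other intervals were wider. *Kdr*, at 937 ± 363 in LP and 883 ± 359 in NP males, had an interval from 0.656-fold to 1.74-fold, and *Tek*, at 389 ± 106 and 387 ± 89.5, from 0.730-fold to 1.40-fold. *Cdh5*, with 611 ± 161 in LP and 523 ± 124 in NP males, had the lowest P of the exact two-sided permutation tests, 0.429, where 0.00794 was the smallest that 5 against 5 mice allow. The ranges of LP and NP males overlapped for all 10 members, and did not overlap for 89 of all genes tested, or 0.675%.

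No member passed the diet test in females either, where the spread was larger. Fitted differences ran from -0.15 (*Plvap*) to 0.49 (*Esm1*), with a median of 0.09 and adjusted P from 0.903 to 0.985 over 13510 genes. No gene at all passed (0%), and 564 genes but no member had an unadjusted P under 0.05. DESeq2 called 9 genes here and no member. *Kdr* was at 869, 738, 1268, 499, and 1105 normalized counts in LP females 1 to 5 and at 588, 1123, and 309 in NP females 1 to 3, a log2 difference of 0.41 ± 0.42 (SE) with an interval from 0.685-fold to 2.56-fold. *Esm1*, at 282 ± 139.6 in LP (n = 5) and 200.5 ± 133 in NP females (n = 3), had an interval from 0.610-fold to 3.21-fold. *Vegfa*, at 3314 ± 713 and 3392 ± 1031, had a log2 difference of -0.03 ± 0.23, from 0.689-fold to 1.40-fold. The lowest exact permutation P was 0.339 (*Ehd3*), where 5 against 3 mice allow 0.0179. Again the diet groups overlapped for all 10 members, while 400 of all genes, or 2.96%, did not overlap. Without LP female 1, LP female 2, and NP female 3, which leaves 3 LP and 2 NP females, 5 members changed sign, the range became -0.73 to 0.16, and none was called.

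Joining the sexes gave no call either. The mean diet difference of both sexes ran from -0.04 to 0.25 over the 10 members, with adjusted P of 0.827 or more. Among all 12665 genes tested in both sexes, 1 passed, or 0.0079%. The diet difference in females minus that in males ran from -0.20 to 0.64, with adjusted P of 0.977 or more, where 2 genes, or 0.0158%, passed. These intervals still allowed differences between the sexes of up to 4.07-fold for *Esm1*.

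**Figure D2:**
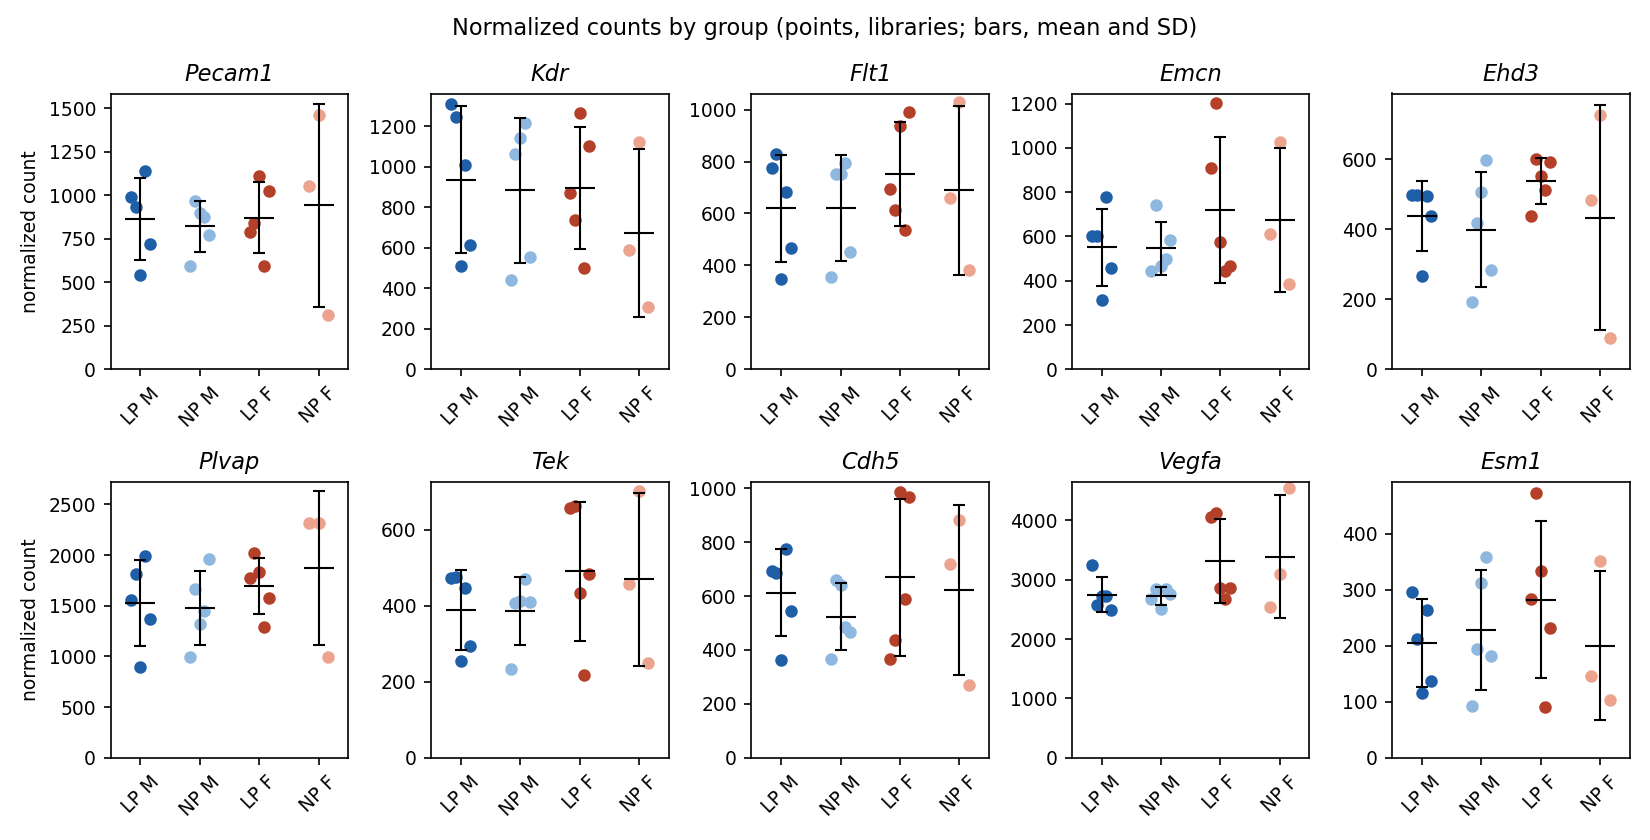
Normalized counts (vertical axis, from 0) of each gene in the males and females of each diet (LP and NP). Points are libraries, and bars are the mean and SD of 5, 5, 5, and 3 libraries. LP and NP overlap in each sex for every gene.

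The other endothelial and VEGF genes also showed no diet difference that passed the test. Of 88 such genes listed, 77 were tested in males, with 0 called and a median log2 difference of 0.10, and 76 in females, with 0 called and a median of -0.11. The medians of the members were 0.04 and 0.09. At an unadjusted P under 0.05 there were 2 of the 77 genes in males and 3 of the 76 in females.

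Between males and females, by contrast, many kidney genes differed but no member passed the test. Of 12665 genes, 4900 passed, or 38.7%, and 2506 of all genes, or 19.8%, were lower in males. None of the 10 members passed, although 9 of 10 fitted values were below 0, with a median of -0.21 against -0.05 for all genes. Of these, *Vegfa* alone had an unadjusted P under 0.05 (0.0224). The endothelial genes rose and fell together across mice, so these signs are not separate observations. Without NP female 2, 3 members changed sign and the median was -0.02.

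**Figure D3:**
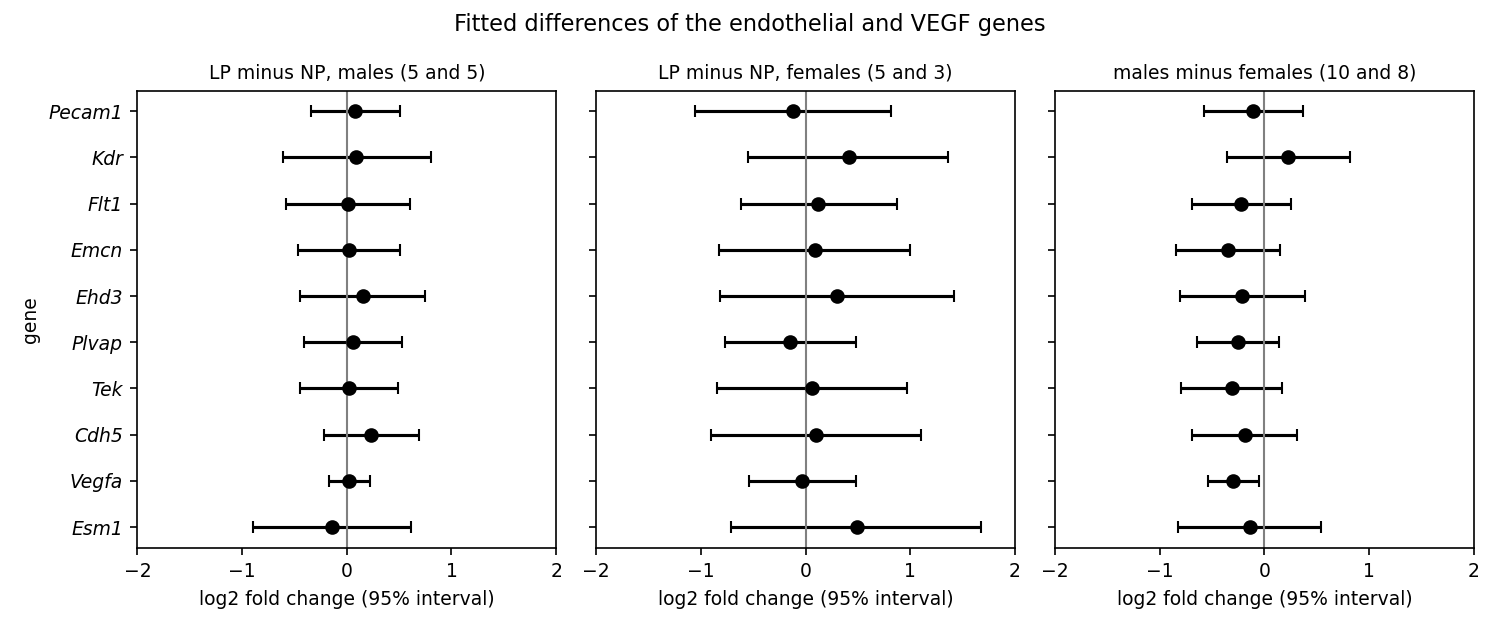
Fitted log2 fold change (points) with its 95% interval (bars) for LP minus NP in males, LP minus NP in females, and males minus females. Each interval spans 0 except that of *Vegfa* between males and females, from -0.54 to -0.05, whose adjusted P was 0.0563.

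The *Vegfa* difference rested on 3 female libraries. *Vegfa* was at 4063, 4118, 2863, 2670.4, and 2856 normalized counts in LP females 1 to 5 and at 2543, 3093, and 4538 in NP females 1 to 3. LP female 1, LP female 2, and NP female 3 were thus above all 10 males (2488 to 3251), and the other 5 females lay within the male range. The fitted male minus female difference was -0.30 ± 0.12 (SE), with an adjusted P of 0.0563. It passed under DESeq2 (adjusted P = 0.0436, where 41.4% of genes passed) and in 6 of the 18 fits that left out 1 library, and adjusted P in those fits ran from 0.0182, without NP female 1, to 0.222, without NP female 3. Without the 3 libraries the difference was -0.04 ± 0.08 (adjusted P = 0.676). In that fit, where 37.7% of genes passed, *Cdh5* alone of the members passed, at -0.55 (adjusted P = 0.0248), against -0.19 ± 0.24 with all libraries (adjusted P = 0.560). Neither gene was called both with and without these libraries.

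With all libraries included, the ratio of the RNA of the VEGF receptors *Kdr* and *Flt1* differed between males and females. The counts are per gene and do not separate the soluble form of *Flt1*. Within a library, *Kdr* per kilobase over *Flt1* per kilobase was 2.51, 2.23, 2.18, 2.19, and 1.95 in LP males 1 to 5 and 1.84, 2.10, 2.26, 2.27, and 1.82 in NP males 1 to 5. It was 1.86, 1.79, 2.01, 1.39, and 1.66 in LP females 1 to 5 and 1.32, 1.62, and 1.21 in NP females 1 to 3. Males therefore had 2.13 ± 0.214 (SD, n = 10) and females 1.61 ± 0.281 (n = 8), 7 of 10 males lay above every female, and 6 of 8 females lay below every male. The log2 ratio was higher in males by 0.46 as the mean of both diets (exact two-sided permutation of sex within each diet, P = 1.42e-04, adjusted P = 0.00638 over all 45 pairs of members). The ratio was singled out after its values had been seen, and the adjustment covers the 45 pairs of members in this comparison only. It does not cover the choice of comparison or pairs with other genes. The share of all gene pairs whose ratio differs between males and females was not counted. No other pair passed, and the next lowest adjusted P was 0.649 (*Kdr* to *Tek*). Without LP female 1, LP female 2, and NP female 3 the difference was 0.44, but the call was lost. Of 1176 arrangements 2 were as extreme (exact permutation P = 0.00170), and the P adjusted over the 45 pairs was 0.0765. The smaller number of arrangements, 1176 against 14112 with all libraries, limits how small P can be here, but a call remained possible. The difference ran from 0.42 to 0.52 when each library was left out in turn.

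Each receptor on its own did not pass the test between males and females. The fitted difference of *Kdr* was 0.23 ± 0.28 (adjusted P = 0.552) and that of *Flt1* was -0.22 ± 0.22 (adjusted P = 0.475). Without the 3 libraries that stood apart, *Kdr* was at 0.00 and *Flt1* at -0.43 (adjusted P = 0.993 and 0.161), and leaving out 1 library moved *Kdr* between 0.04 and 0.52 and *Flt1* between -0.38 and -0.02. Which receptor carried the difference in ratio therefore depended on the libraries included. Libraries low in *Kdr* were also low in *Flt1*, and the spread between mice, which is wide for each gene, was small for their ratio, as the plot of *Kdr* against *Flt1* shows. The diet difference of the ratio did not pass within either sex by the same kind of test. The ratio was 2.21 ± 0.201 in LP and 2.06 ± 0.218 in NP males (n = 5 each, exact permutation P = 0.246), and 1.74 ± 0.236 in LP (n = 5) and 1.38 ± 0.214 in NP females (n = 3, exact permutation P = 0.0714).

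**Figure D4:**
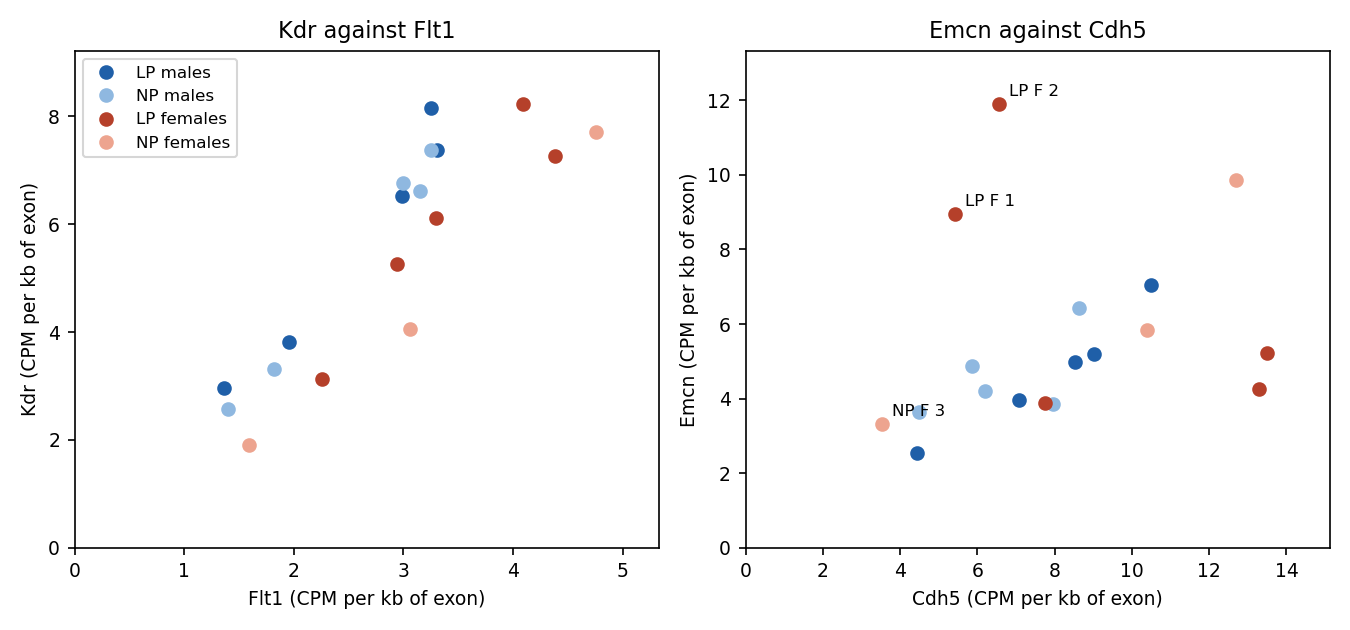
Left, *Kdr* against *Flt1*, and right, *Emcn* against *Cdh5*, in CPM per kilobase of exon, with 1 point for each library colored by group. At a given *Flt1* the males lie higher in *Kdr* than most females, and LP female 1 and LP female 2 stand apart in *Emcn* against *Cdh5*.

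Among the other endothelial and VEGF genes, 25 of 75 tested passed between males and females, 24 lower and 1 higher in males. Of all genes, 38.7% passed, and 19.8% passed and were lower in males. Whether 24 of 75 exceeds that share was not tested. Their median log2 difference was -0.38, against -0.05 over all genes. Of the VEGF list, *Vegfb*, the most abundant of it and a ligand of FLT1, was lower in males at -0.52 ± 0.11 (SE, adjusted P = 0.00107), as was *Nrp1*, a co-receptor of KDR, at -0.43 ± 0.14 (adjusted P = 0.0203). *Vegfc*, *Vegfd*, *Flt4*, and *Nrp2* did not pass, and *Pgf* was too low to test. Of the angiopoietin and TIE list, the TEK ligand *Angpt1* was lower in males at -0.79 ± 0.27 (adjusted P = 0.0252). *Angpt2*, which can oppose it, was at -0.61 ± 0.30 (adjusted P = 0.116), and the most abundant gene of that list, *Tie1*, which encodes the partner receptor of TEK, was at -0.27 ± 0.15 (adjusted P = 0.156).

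Of 18 tested signaling genes, 4 were lower and none higher in males, a share close to the 19.8% of all genes that were lower. These were *Ephb4*, a receptor typical of veins, at -0.48 ± 0.08 (adjusted P = 1.04e-04), the peptide ligand *Apln* at -1.37 ± 0.23, the ALK1 receptor gene *Acvrl1* at -0.51 ± 0.13, and the chemokine *Cxcl12* at -0.63 ± 0.23. *Eng*, a co-receptor for TGF-beta family ligands and the most abundant of them, was at -0.37 ± 0.15 (adjusted P = 0.0624). Of 15 transcription factors, *Mecom* (-0.60 ± 0.14), *Sox17* (-0.98 ± 0.25), *Gata2* (-0.45 ± 0.12), and *Elk3* (-0.75 ± 0.22) were lower in males, and the most abundant, *Epas1*, which encodes a hypoxia-inducible factor, was at -0.12 ± 0.20 (adjusted P = 0.668). Several of these genes are also expressed outside the endothelium.

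Among the pan-endothelial genes outside the members, 5 of 16 tested were lower in males: *Ramp2* (-0.83 ± 0.16, adjusted P = 5.93e-04), a receptor subunit for adrenomedullin, the tight junction gene *Cldn5* (-0.89 ± 0.22), *Esam* (-0.40 ± 0.11), the most abundant of the list, *Arhgef15* (-0.55 ± 0.18), and *Adgrl4* (-0.56 ± 0.21). The remaining 11 did not pass. Over all genes, 38.7% passed and 19.8% passed and were lower in males, and the counts given here were not tested against these shares. In the vessel-type lists, members included, 2 of 5 tested glomerular genes were lower in males, *Nostrin* (-0.82 ± 0.17) and *Pi16* (-0.66 ± 0.16). So were 1 of 4 tested peritubular and venous genes, *Npr3* (-0.80 ± 0.25), and 3 of 6 tested arterial genes. The arterial genes were *Sox17* and the connexins *Gja5* (-0.73 ± 0.18) and *Gja4* (-0.65 ± 0.23). In the lymphatic list, with 5 genes tested, *Pdpn* (-0.73 ± 0.19), *Prox1* (-0.57 ± 0.21), and *Ccl21a* (-1.03 ± 0.33), the most abundant of that list, were lower and *Reln* was higher in males (0.96 ± 0.30). *Plat*, *Igfbp3*, and *Sema3g*, the most abundant of the glomerular, peritubular, and arterial lists, did not pass (adjusted P = 0.363, 0.815, and 0.131).

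Some markers of other cell types also passed between males and females, where 38.7% of all genes passed and 19.8% were lower in males. All 8 of 8 podocyte genes passed and were lower in males, with a median log2 difference of -0.91. Their sums were 175 to 290.1 CPM in males and 305 to 604 CPM in females. No podocyte gene of the list was at 0. Lower calls in males were also made for 2 of 5 macrophage genes (median -0.66), 2 of 4 tested genes of the thick ascending limb (median -0.59), 2 of 4 of the collecting duct (median -0.39), and 1 of 6 of smooth muscle and pericytes (median -0.21), and 3 of 6 proximal tubule genes were higher in males (median 0.12). Whether these counts exceed the shares over all genes was not tested. The part of these cell types in the sex differences of the endothelial genes was also not tested.

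Across mice of the same group, the 9 endothelial genes rose and fell together. After removal of group means, Pearson r over the 15 libraries without the 3 that stood apart was 0.56 to 0.98 for their 36 pairs, with a median of 0.82, and 0.78 over all 18 libraries. These values are descriptions: libraries share depth and composition, and r is not tested. The VEGF receptors *Kdr* and *Flt1* were closest (r = 0.98), followed by the junction genes *Pecam1* and *Cdh5* (r = 0.97). *Emcn* and *Plvap* were closer to each other (r = 0.83) than either was to *Ehd3* (r = 0.56 and 0.57) or to *Kdr* (r = 0.64 and 0.60). They were about as close to *Pecam1* (r = 0.84 and 0.82) and to *Cdh5* (r = 0.81 and 0.80) as to each other. *Esm1* and *Tek* went with *Kdr* (r = 0.93 and 0.92), and *Tek* was as close to *Pecam1* and *Flt1* (r = 0.93 each). *Vegfa* was less alike, with r of 0.39 to 0.62 and a median of 0.56 with the 9 others, and -0.48 to 0.46 with a median of 0.01 over all 18 libraries.

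**Figure D5:**
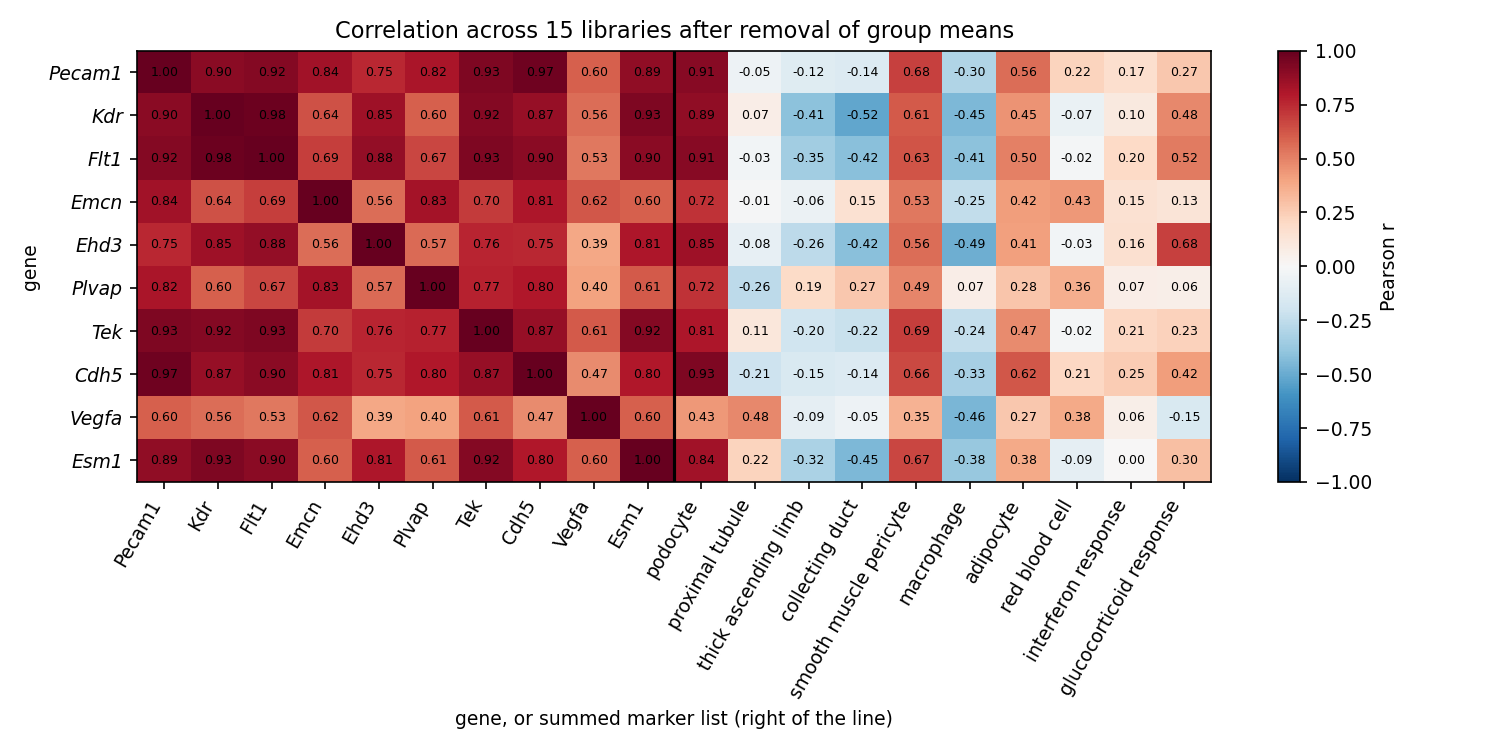
Pearson r of log2(CPM + 1) after removal of group means over 15 libraries, between the genes (left of the line) and between each gene and the summed CPM of a marker list (right of the line). The podocyte sum has r from 0.72 to 0.93 with the 9 endothelial genes and 0.43 with *Vegfa*, whereas over all 18 libraries, not drawn, these are 0.22 to 0.85 and -0.42.

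Correlations with marker sums depended more on the libraries included. Over the 15 libraries, the podocyte sum had a Pearson r of 0.93 with *Cdh5* (Spearman rho 0.88), 0.91 with *Pecam1* (rho 0.84) and *Flt1* (rho 0.67), 0.89 with *Kdr* (rho 0.80), and 0.85 with *Ehd3* (rho 0.74). Without the 2 libraries whose podocyte sum was farthest from the median, these r were 0.84, 0.84, 0.85, 0.88, and 0.72, and over all 18 libraries they were 0.85, 0.75, 0.82, 0.78, and 0.69. For the other 4 endothelial genes the values were less stable. The r with *Esm1* was 0.84 (rho 0.82) over the 15 libraries and 0.40 over all 18, that with *Tek* was 0.81 (rho 0.57) and 0.42, and that with *Emcn* was 0.72 (rho 0.64) and 0.22. For *Plvap*, the peritubular gene, it was 0.72 (rho 0.55) and 0.53, and it became 0.29 without the 2 farthest of the 15. The smooth muscle and pericyte sum had r of 0.49 to 0.69 with the 9 endothelial genes over the 15 libraries and 0.11 to 0.85 over all 18, and for *Tek* its rho of 0.69 was above that of the podocyte sum. The collecting duct sum went the other way for *Kdr* (r = -0.52, rho -0.66) but not for *Plvap* (r = 0.27, rho 0.25). The r of the proximal tubule sum with *Vegfa* turned from 0.48 over the 15 libraries to -0.53 over all 18. With the 9 endothelial genes it was -0.26 to 0.22 over the 15 and -0.62 (*Cdh5*) to -0.15 (*Esm1*) in the 10 males. The piece of kidney sampled can hold more cortex or more medulla, and the part of this in the values was not tested.

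Outside all lists, the genes most like the mean of the 10 members over the 15 libraries were *Marcks* and *Meis2* (r = 0.97 each), *Arhgap31*, *Amotl1*, and *Map4* (r = 0.96 each), and *Cyria*, *Epb41l2*, and *Zeb1* (r = 0.95 each), chosen from 12665 genes. Over all 18 libraries r was 0.83 (*Map4*) to 0.97 (*Marcks*, *Meis2*). In all, 547 genes, members and listed genes included, had an r over 0.8.

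In LP female 1 and LP female 2 the endothelial genes parted from each other. *Emcn* was at 911 and 1201 normalized counts there and at 577, 443, and 465 in LP females 3 to 5, whereas *Cdh5* was at 366 and 438 against 987, 590.2, and 966. *Emcn* was thus higher and *Cdh5* lower in these libraries than in every other LP female. *Tek* went with *Emcn*, at 657 and 663 against 434, 218, and 483. Per kilobase, *Emcn* over *Cdh5* was 1.65 and 1.82 in these libraries, against 0.319 to 0.944 in the other 16, of which NP female 3 had 0.944. *Tek* over *Cdh5* was 1.31 and 1.11, against 0.269 to 0.709. *Kdr* and *Flt1* did not part, with ratios of 1.86 and 1.79, inside the range of the other females. Over all 18 libraries r between *Emcn* and *Cdh5* was 0.34, and it was 0.81 over the 15. These libraries were singled out by data and not by label, so that their values carry no test.

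The sequence before the start of *Emcn*, *Tek*, and *Vegfa*, which were high in these libraries, is given for the 250 bases upstream of the canonical transcript (GENCODE vM39, GRCm39 genome, 5′ to 3′ on the strand of the gene). Capitals mark GGAAG, the core bound by ETS factors such as ERG and FLI1 that drive endothelial genes, or its reverse complement CTTCC. *Emcn* lies at chr3:137046544-137046793 (plus strand), *Tek* at chr4:94627041-94627290 (plus strand), and *Vegfa* at chr17:46343310-46343559 (minus strand). No annotated exon overlaps these windows.
Emcn: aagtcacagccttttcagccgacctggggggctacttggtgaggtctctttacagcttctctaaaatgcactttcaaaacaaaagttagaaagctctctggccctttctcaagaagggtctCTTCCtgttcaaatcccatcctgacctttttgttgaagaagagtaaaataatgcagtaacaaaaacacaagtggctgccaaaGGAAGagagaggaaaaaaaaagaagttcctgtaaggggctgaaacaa
Tek: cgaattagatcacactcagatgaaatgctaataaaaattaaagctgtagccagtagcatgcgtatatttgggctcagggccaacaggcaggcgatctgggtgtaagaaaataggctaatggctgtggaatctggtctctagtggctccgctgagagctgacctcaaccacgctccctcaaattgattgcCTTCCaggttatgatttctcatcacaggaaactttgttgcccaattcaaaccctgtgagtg
Vegfa: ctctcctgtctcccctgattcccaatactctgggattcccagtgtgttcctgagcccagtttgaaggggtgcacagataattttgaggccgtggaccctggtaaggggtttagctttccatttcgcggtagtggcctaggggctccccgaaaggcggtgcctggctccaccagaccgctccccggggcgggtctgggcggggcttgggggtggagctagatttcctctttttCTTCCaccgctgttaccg
The ETS core on either strand was in the windows of 6 of the 9 members examined, all but *Pecam1*, *Ehd3*, and *Esm1*, and in 63.8% of the 21770 windows of protein-coding genes. The window of *Ehd3* lies in annotated exons over all 250 bases, and that of *Flt1* has 5 exon bases. The windows of *Pecam1* and *Kdr* lie inside the annotated bounds of their genes. The GC box GGGCGG was in 4 of these 9 members and 36.3% of all windows. The hypoxia response core ACGTG was in *Plvap* alone and in 17% of all windows, and TATAAA was in *Flt1* alone and in 11.9%. The windows of *Emcn* and *Tek* had no GC box and 42.4% and 46% G or C, whereas that of *Vegfa* had 2 GC boxes and 59.6%. A match of letters is a description and does not show that a factor binds there.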

How the data were processed

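RNA came from a piece of 1 kidney per mouse and was sequenced after poly-T selection, without keeping strand. The authors deposited raw read counts per gene from STAR, made on the GRCm39 build with the GENCODE vM36 annotation, of which the unstranded column was used. The STAR version is not given in the sources used here. Gene names, exon lengths, and upstream sequence came from GENCODE vM39 on GRCm39. The upstream window of 1 member is not reported here. Rows that name no gene were left out of library sizes and tests. Total counts on genes were 14050486 to 23562411 per library.

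A gene entered a comparison if each library in it held 10 counts or more, and was tested by the quasi-likelihood method of edgeR 4.0.16 (TMM scaling, R 4.3.3), and a call was an adjusted P under 0.05 over all genes tested (Benjamini-Hochberg). Diet was compared within each sex, as the mean of both sexes, and between the sexes, and males were compared with females as the mean of both diets. Normalized counts are counts divided by the size factors of DESeq2 1.42.0. Exact two-sided permutation tests used log2(normalized count + 1) for single genes within a sex and the log2 ratio of CPM per kilobase for pairs of genes. Correlations used log2(CPM + 1) with group means removed. The tests were tried on simulated data first. Replicates are separate samples by their labels, no pair of libraries of a group was alike within counting noise, and P values measure the spread between these samples. Diet was given to dams, and the authors state that the adult cohort came from only a few litters. Some of these mice must therefore be littermates, yet the tests treat all offspring as independent. The diet P values and intervals do not account for litter. Python 3.11.15 with scipy 1.17.1 was used.

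The members and the gene lists were chosen with earlier results of these data known. All 10 members are named. Of the other endothelial lists, genes that passed are named, up to 6 per list and comparison by smallest P, with the most abundant gene of each list, and 8 genes outside all lists are named for their correlation with the members. Alternatives were no filter on low counts, the filterByExpr rule of edgeR, DESeq2 size factors, the DESeq2 Wald test, a term for the replicate number, 1 model over all 4 groups, each diet alone for the sex comparison, and leaving out libraries. The gene ratios and the correlations within males alone were added after the data had been seen.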

Additional observations from a re-analysis of the deposited data

Results flagged for a closer look

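Among the 30 sets of 5 libraries examined for the 10 members (3 groups, NP females being too few), 2 held a library far from the others by Dixon's test at the 95% level, where chance would mark about 1 in 20. In LP male 3, *Ehd3* was at 267 normalized counts, and the other LP males were at 437 to 498. In NP male 1, *Tek* was at 234 normalized counts, and the other NP males were at 407 to 472. Both libraries were low for most of the endothelial genes.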

How the results depend on the processing

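No member was called for diet in males, in females, in the mean of both, or between the sexes under any of the alternatives, whose lowest adjusted P values were 0.680, 0.224, 0.293, and 0.364. For males against females, the count of members called was 1 with the DESeq2 Wald test (*Vegfa*) and 1 without LP female 1, LP female 2, and NP female 3 (*Cdh5*), and from 0 to 1 when each library was left out in turn, the call being *Vegfa* each time. The 25 other endothelial and VEGF genes called between males and females became 8 in LP mice alone and 10 in NP mice alone, fits with fewer samples, and stayed between 19 and 31 otherwise. Diet differences of the members were small enough for their sign to depend on single libraries: with 1 library left out, up to 7 of 10 changed sign in males and up to 6 in females. For males against females, up to 3 members changed sign. The median correlation of *Vegfa* with the 9 other members was 0.56 over 15 libraries, 0.01 over all 18, and 0.43 in the 10 males. That of the 36 pairs of the 9 others was 0.82, 0.78, and 0.85. Deviations of same-numbered LP and NP males had r from -0.30 to 0.33, and those of LP and NP females from -0.61 to -0.39. For same-numbered males and females, r ran from -0.27 to 0.00 in LP mice and from -0.27 to 0.49 in NP mice. Such r cannot show whether or not the numbers pair the mice. The *Kdr* to *Flt1* ratio lost its call without the 3 libraries (log2 difference 0.44 against 0.46, adjusted P = 0.0765 over the 45 pairs, against 0.00638). That permutation test had 1176 arrangements, against 14112 with all libraries, which limits how small its P can be but still allowed a call. With the replicate block, members called remained 0 in all 5 comparisons, and 20 of the other genes were called between males and females. With 3 NP females, differences in females under about the size of the intervals printed could not be detected.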
